A study of Vitis vinifera with 7 samples.

Results

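The probes described here stayed near their green-berry signal at veraison and were at least 4-fold brighter in ripe berries. They were chosen from the deposited log2 signals, where a difference of 1 is 2-fold. A probe was taken where its veraison mean lay less than 1 from its green mean, and its ripe value lay at least 2 above the highest of the 3 veraison values. This held for 111 of 28811 probes (0.385%), and they are called late risers with a flat first step below. Of the 22102 probes with a flat first step, 0.502% were late risers. Their ripe signal was 5.74-fold their veraison signal at the median, most started dim, and 16 of them fell within a stretch of 39 consecutive identifiers.

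The samples were berry tissue of the white grapevine cultivar Sauvignon blanc (Vitis vinifera), with no treatment named in the labels. They came from green berries at stage EL-31 (3 arrays), from veraison at stage EL-34 (3 arrays) and from ripe berries at stage EL-38 (1 array). Tissue of a stage was ground and pooled, and the arrays of a stage differ only in the RNA extraction, labelling and hybridisation. The errors given here therefore describe the procedure on 1 pool per stage and not the variation between vines or berries.

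EL numbers come from the modified Eichhorn-Lorenz scale, which grades grapevine development by eye. Green berries of this kind are hard, acidic and growing. Veraison is the onset of ripening, when berries soften and sugar begins to accumulate, and malic acid is lost over the weeks that follow. Ripening continues to harvest, and many compounds of aroma and defence are known to build up late in it. The rule used here asks which signals were higher in ripe berries than at veraison, without an earlier difference of that size.

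None of the 28811 probe identifiers was found in the gene table used for names (RefSeq, Vitis vinifera Pinot Noir 40024). The late risers are therefore given by identifier, without gene, function or position, and the labelled tissue could not be checked against marker genes. Array medians ran from 9.17 to 9.22 and single values from 4.06 to 15.99. Veraison extraction 2 stood apart from its stage. Over all probes its difference to the other veraison extractions had an SD of 0.596 and 0.529 log2, against 0.204 between extractions 1 and 3. Extraction 2 lay nearer to the ripe array, with an SD of 0.842 against 0.986 and 0.929 for extractions 1 and 3. Extraction 2 also lay farther from the green arrays, with SDs of 1.32 to 1.34 against 1.25 to 1.28. The number of late risers, their spread and the overlap of stages are given with and without it.

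The rule used all 7 arrays, so the levels and differences of the late risers are descriptions and carry no test. The median log2 signal of the 111 probes was 6.76, 6.68 and 6.50 in the green extractions, 6.64, 6.82 and 6.88 in those of veraison and 9.50 in ripe berries. The first 6 values lie close together and the ripe one stands apart. The ripe value exceeded the veraison mean by 2.07 to 4.56, with a median of 2.52. In linear terms this was 4.19-fold to 23.6-fold, with a median of 5.74-fold.

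**Figure D1:**
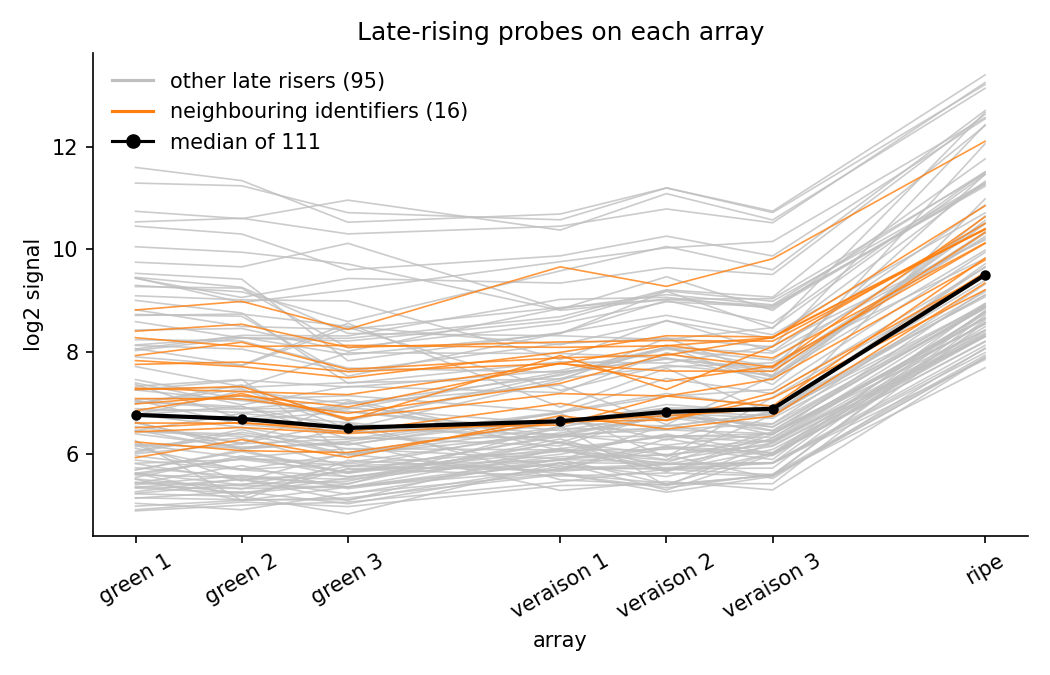
Log2 signal (vertical axis) of each of the 111 late risers with a flat first step on the 7 arrays (horizontal axis), 1 line per probe. Orange lines are the 16 probes whose identifiers follow each other closely, grey lines the other 95, and the black line is the median, which reads 9.50 on the ripe array and 6.50 to 6.88 on the other 6.

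All 111 were above all 3 green arrays in ripe berries, where 49.6% of all probes were. The rule nearly forces this, since it sets the ripe value more than 1 above the green mean, and nothing is read from it. The margin over the highest green array ran from 1.18 to 4.40, with a median of 2.67. In limma's fit over all probes (adjusted p under 0.05), all 111 were called higher in ripe than in veraison berries and all 111 higher in ripe than in green berries. The share of all probes called higher was 14.4% for the first comparison and 30.7% for the second. These comparisons use the contrast of the rule, and the single ripe array was assumed to vary like the others, so the counts are given only for reference.

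The sizes bunched near the limit. The excess of ripe over the highest veraison value was 2 to 2.5 in 81 probes, 2.5 to 3 in 23, 3 to 3.5 in 4, 3.5 to 4 in 1 and above 4 in 2. Another 194 probes with a flat first step lay between 1.5 and 2, so the edge of the set cuts through a continuous spread of values.

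**Figure D2:**
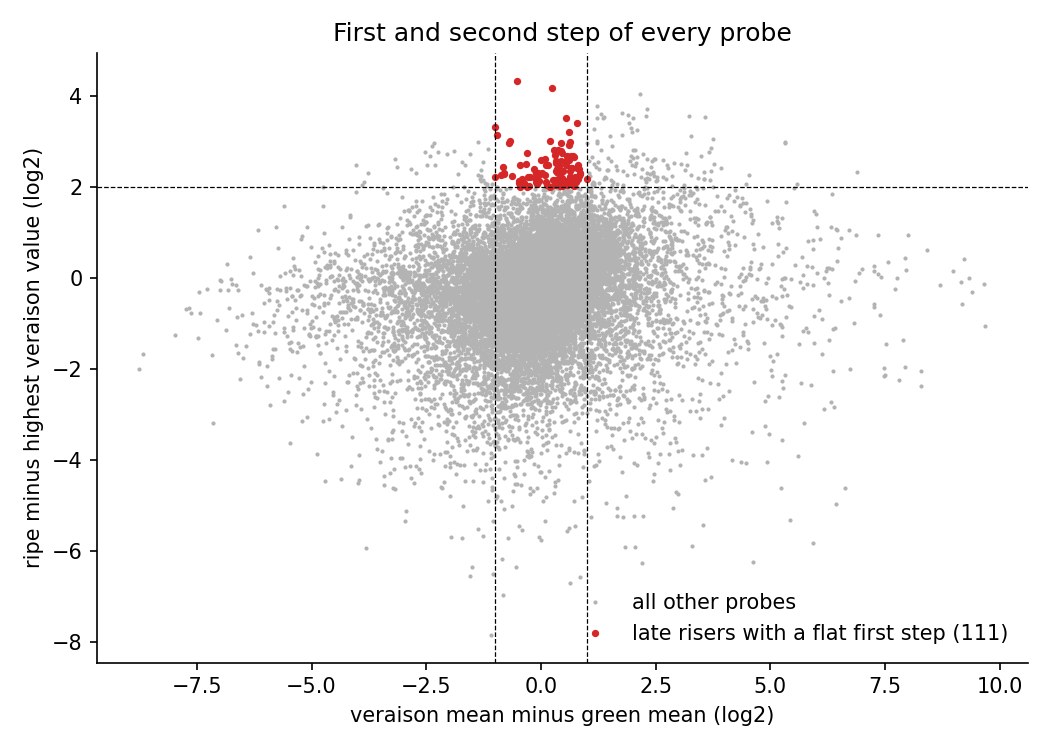
Each point is 1 of 28811 probes, with the veraison mean minus the green mean (log2) across and the ripe value minus the highest veraison value (log2) upward. Dashed lines mark the limits of the rule, and the 111 red probes fill the lower part of the box above 2, with 2 of them above 4.

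The 12 probes with the largest excess of ripe over the highest veraison value are given in full. VitusP00265477 had 7.90, 7.72 and 8.47 in green berries, 7.24, 7.73 and 7.54 at veraison and 12.07 in ripe berries. Its ripe signal was 23.6-fold that of the veraison mean, the largest such ratio of the whole table. VitusP00216833 had 8.12, 8.05 and 7.61 in green berries, 8.16, 8.27 and 8.09 at veraison and 12.44 in ripe berries, a ratio of 19.3-fold over veraison. By green mean they stood at the 40.0th and 39.1st percentile of all probes, and on the ripe array at the 79.9th and 83.6th. In both, green and veraison arrays overlapped.

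VitusP00210960 had 8.13, 8.28 and 7.94 in green berries, 8.35, 9.18 and 8.46 at veraison and 12.68 in ripe berries. VitusP00133046 had 6.98, 7.35 and 6.64 in green berries, 7.56, 8.07 and 7.70 at veraison and 11.47 in ripe berries. VitusP00163129 had 8.59, 8.27 and 8.26 in green berries, 8.68, 9.21 and 9.07 at veraison and 12.42 in ripe berries. In these 3 probes every veraison array was already above every green array, and extraction 2 was the highest of the veraison values. Their ripe values exceeded the veraison means by 4.02, 3.69 and 3.44.

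VitusP00265518 had 8.06, 7.74 and 8.55 in green berries, 6.91, 7.67 and 6.77 at veraison and 10.99 in ripe berries. VitusP00265508 had 6.54, 6.21 and 6.60 in green berries, 5.49, 5.39 and 5.57 at veraison and 8.71 in ripe berries. Here the order of the first 2 stages was turned round, with all veraison arrays below all green ones. VitusP00050353, with 7.02, 6.88 and 7.06 in green berries, 6.20, 5.88 and 6.76 at veraison and 9.72 in ripe berries, showed the same dip.

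VitusP00138941 had 9.43, 9.06 and 9.43 in green berries, 9.34, 9.64 and 9.51 at veraison and 12.64 in ripe berries. VitusP00082586 had 9.45, 9.26 and 8.36 in green berries, 8.31, 8.23 and 8.47 at veraison and 11.47 in ripe berries. Green extraction 3 stood about as low there as the veraison arrays, so the first 2 stages overlapped, as they did in VitusP00138941. Without that array the veraison minus green difference of VitusP00082586 was -1.02, outside the rule.

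Another 2 of the 12 began near the bottom of the scale. VitusP00106892 had 5.14, 5.10 and 5.10 in green berries, 5.75, 5.69 and 5.81 at veraison and 8.80 in ripe berries. VitusP00199733 had 5.03, 4.90 and 5.23 in green berries, 5.61, 5.42 and 5.41 at veraison and 8.57 in ripe berries. In both, every veraison array lay above every green one, with mean differences of 0.64 and 0.43, and the ripe values exceeded the veraison means by 3.05 and 3.09.

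**Figure D3:**
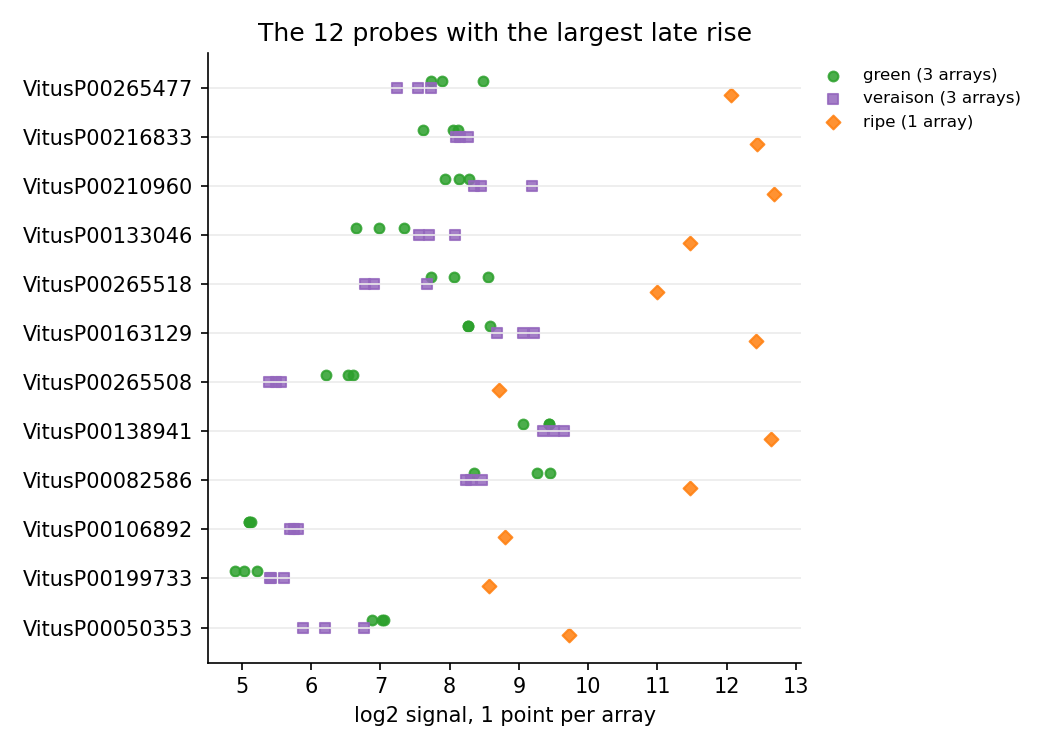
Log2 signal (horizontal axis) of the 12 late risers with the largest excess of ripe over the highest veraison value, 1 row per probe and 1 point per array. Green circles are green berries, purple squares veraison and orange diamonds the single ripe array, which lies 2.96 to 4.33 to the right of the highest veraison point.

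At the other edge of the set, VitusP00082958, VitusP00292535 and VitusP00148178 exceeded their highest veraison value by 2.01, 2.01 and 2.004. VitusP00201161, VitusP00189067 and VitusP00147143 missed the limit with 1.9996, 1.98 and 1.98. For the first step, VitusP00033393 came closest to the upper limit with a veraison minus green mean of 0.99, followed by VitusP00005361 and VitusP00083198 with 0.84 each. VitusP00265518 and VitusP00247193 came closest to the lower limit with -0.998 and -0.997, and VitusP00265508 followed with -0.97. The nearest late risers outside were VitusP00083138 with 1.01 and VitusP00093028 with -1.07.

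The first step was small by the rule but not always absent. Its median over the 111 probes was 0.37, against 0.08 over all probes. It was above 0 in 77 probes (69.4%), against 58.6% of all probes with a flat first step. It lay between 0.5 and 1 in 39 (35.1%, against 16.8%) and between 0 and 0.5 in 38 (34.2%, against 41.8%). It lay between -0.5 and 0 in 23 (20.7%, against 29.2%) and between -1 and -0.5 in 11 (9.9%, against 12.2%). All 3 veraison arrays were above all 3 green arrays in 52 of the 111, where 33.7% of all probes showed this, and all 3 were below in 12, where 26% did. By limma's adjusted p under 0.05, 44 were called higher at veraison than in green berries, against 26.4% of all probes, and 10 were called lower, against 21.7%. The rule limited this contrast too, and nothing is read from these counts. Without veraison extraction 2 the veraison arrays were above the green ones in 58 of the 111 (40.6% of all probes) and below in 19 (32.4% of all probes), where fewer arrays overlap less by construction.

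Late risers started dim. By veraison mean, 33 lay up to the 25th percentile of all probes, 69 between there and the 50th, 9 between the 50th and the 75th and none above. On the ripe array none lay below the 25th percentile, 50 were between the 25th and the 50th, 47 between the 50th and the 75th and 14 above. The median probe stood at the 30.8th percentile at veraison and at the 52.8th in ripe berries. For late risers at least 1 higher at veraison than in green berries, the veraison median was the 40.8th percentile. For those at least 1 lower it was the 40.6th, so a veraison median below the middle was shared. Signals near the lower end of the scale can be compressed, and no detection flag was used. With an offset of 50 on the linear scale, which shrinks differences of dim probes, the rule found 76 probes, of which 57 were among the 111.

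The dimmest by green mean were VitusP00107169, VitusP00199733 and VitusP00176520. VitusP00107169 had 4.90, 5.05 and 4.96 in green berries, 5.38, 5.40 and 5.58 at veraison and 7.68 in ripe berries, the lowest ripe value of the 111. VitusP00176520 had 4.88, 4.99 and 5.05 in green berries, 5.45, 5.69 and 5.59 at veraison and 8.62 in ripe berries. In both, as in VitusP00199733, the green and veraison arrays did not overlap, with mean differences of 0.48 in VitusP00107169, 0.60 in VitusP00176520 and 0.43 in VitusP00199733.

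Bright late risers were few, with a green mean above 10 in 5 of the 111 (4.5%), against 42.4% of all probes. Of the 118 late risers at least 1 higher at veraison than in green berries, 0 had such a green mean. Of the 35 at least 1 lower, 21 did. VitusP00254027 had 11.61, 11.35 and 10.53 in green berries, 10.69, 11.20 and 10.75 at veraison and 13.42 in ripe berries. VitusP00033156 had 11.30, 11.25 and 10.72 in green berries, 10.58, 11.20 and 10.72 at veraison and 13.23 in ripe berries. Both were among the 3 brightest of the 111 on the ripe array, and in both the green and veraison arrays overlapped. VitusP00148117 had 10.54, 10.61 and 10.30 in green berries, 10.46, 10.79 and 10.52 at veraison and 13.27 in ripe berries, and green and veraison arrays overlapped. VitusP00192058 had 10.75, 10.60 and 10.96 in green berries, 10.38, 11.09 and 10.58 at veraison and 13.15 in ripe berries.

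The spread between extractions was not set by the rule directly, but it entered the stage means and the highest veraison value that the rule used. The median SD of a late riser was 0.200 log2 between veraison arrays and 0.203 between green arrays (n = 3 each). Over all probes the medians were 0.188 at veraison and 0.138 in green berries. These values moved with single arrays. Without veraison extraction 2 the veraison median was 0.113 for late risers and 0.0715 for all probes, and without green extraction 3 the green median was 0.122 for late risers and 0.0808 for all probes. An SD from 2 arrays has a lower median by construction. Green extraction 3 was the lowest of the green arrays in 59 of the 111 (53.2%), against 34.8% of all probes. It lay at least 0.5 below both other green arrays in 12 late risers (10.8%) and at least 0.5 above both in 1 (0.9%). Over all probes the shares were 4.92% and 1.25%, so extraction 3 was more often low than high there too.

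The 3 late risers with the largest green SD all owed it to that array. VitusP00292535 had 9.53, 9.42 and 7.82 in green berries, with 8.37, 8.71 and 8.33 at veraison and 10.71 in ripe berries. VitusP00292495 had 9.00, 8.76 and 7.38 in green berries, with 7.80, 7.77 and 8.11 at veraison and 10.19 in ripe berries. VitusP00148178 had 7.32, 7.45 and 5.97 in green berries, with 6.52, 6.89 and 6.45 at veraison and 8.89 in ripe berries. In each, green extractions 1 and 2 stood above all veraison arrays and extraction 3 below them. Without extraction 3 the veraison minus green differences were -1.01, -0.98 and -0.77, in place of -0.45, -0.48 and -0.30. VitusP00292535 would then not have met the rule. Neither would VitusP00082586, VitusP00247193 and VitusP00033393, whose differences became -1.02, -1.09 and 1.06. Of the 111, 107 met the rule without that array.

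At veraison the largest SDs came from extraction 2. VitusP00217790 had 5.33, 5.23 and 5.40 in green berries, 6.54, 5.37 and 6.22 at veraison and 8.57 in ripe berries. VitusP00132990 had 6.46, 6.09 and 6.24 in green berries, 6.79, 5.93 and 7.10 at veraison and 9.50 in ripe berries. VitusP00224190 had 6.75, 7.23 and 6.97 in green berries, 7.34, 6.57 and 7.51 at veraison and 9.98 in ripe berries. Without extraction 2 their ripe minus veraison differences were 2.18, 2.56 and 2.56, in place of 2.52, 2.89 and 2.84. Extraction 2 was the lowest in these 3 probes, while over the 111 it was the highest veraison array in 60 (54.1%), close to the 54.7% of all probes. Without extraction 2 the rule found 166 probes, among them 106 of the 111.

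The identifiers of the late risers were not spread evenly through the table. Identifiers run upward in steps with a median of 10, and what their order stands for is not given in the sources used here. With 2 late risers joined into a run where they lay at most 10 places apart, a limit chosen after the values were seen, 37 of the 111 (33.3%) fell into 11 runs. There were 9 runs of 2 probes, 1 of 3 and 1 of 16. With limits of 5 and 20 places, 29 and 42 probes were in runs, and the largest run held 13 and 16.

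The run of 16 lay between VitusP00082827 and VitusP00083206, a stretch of 39 consecutive probes. In it, 41.0% of the probes were late risers with a flat first step, a share that follows in part from the way the run was picked and bounded. The 16 probes had green means of 6.04 to 8.74, veraison means of 6.65 to 9.58 and ripe values of 9.21 to 12.12. Their ripe minus veraison differences ran from 2.20 to 2.96 with a median of 2.60. Those of the other 95 late risers ran from 2.07 to 4.56 with a median of 2.51. The rule cuts both ranges at the lower end, and fewer probes tend to span a narrower range, so nothing is read from the ranges. The first step was above 0 in 14 of the 16 and in 63 of the other 95, and green extraction 3 was the lowest green array in 14 of the 16 and in 45 of the other 95.

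The brightest of the 16 on the ripe array was VitusP00083198, with 8.81, 8.98 and 8.44 in green berries, 9.66, 9.28 and 9.82 at veraison and 12.12 in ripe berries. VitusP00082958 had the smallest excess over the highest veraison value in the run, with 7.75, 7.80 and 7.61 in green berries, 7.76, 8.12 and 7.87 at veraison and 10.13 in ripe berries. Between VitusP00083012 and VitusP00083051, 5 late risers followed each other without a gap. VitusP00083015 among them had 8.27, 8.10 and 8.12 in green berries, 8.08, 8.11 and 8.27 at veraison and 10.85 in ripe berries. It was named after its values were seen, as the probe of the run with the flattest first step (-0.01).

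Other probes of the same stretch showed a late rise without meeting the rule. In 3 of them the veraison mean was at least 1 above the green mean, and in 1 it was at least 1 below, so that 20 of the 39 had a ripe value at least 2 above the highest veraison value. VitusP00083172 had 7.09, 7.14 and 6.56 in green berries, 9.10, 8.46 and 9.35 at veraison and 11.80 in ripe berries. VitusP00082975 had 9.01, 9.10 and 8.79 in green berries, 7.78, 7.31 and 8.01 at veraison and 10.16 in ripe berries. These 2, also named after their values were seen, took opposite first steps of 2.04 and -1.27 and then differed from veraison by 2.83 and 2.46.

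A further 6 probes of the stretch exceeded the highest veraison value by 1 to 2, and 13 by less than 1. Of these 13, 7 were below 7 on every array and 2 above 13 on every array, which leaves 4 in between. Over the 39 probes the median ripe minus veraison difference was 2.21, against 0.09 over the 20 probes before the stretch, 0.28 over the 20 after it and 0.08 over all 28811. A median above 2 follows from the 20 of the 39 that lay at least 2 above their highest veraison value. The stretch was also bounded by such probes, so nothing is read from this contrast. The 10 places next to the stretch on either side hold no late riser with a flat first step by construction, since the run ends there. The rest of the 20 places on either side held none either, which the run limit does not force. Late risers lay not far beyond the flank before the stretch. Counted from 0 in identifier order, VitusP00082563, VitusP00082576 and VitusP00082586 are at places 8006, 8007 and 8008, and the stretch begins at 8032. The lowest difference in the flanks, -2.59, was that of VitusP00083215, which follows directly after the stretch. Whether probes of the stretch share sequence, and so measure the same transcripts, was not tested, since no probe sequences were used here.

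**Figure D4:**
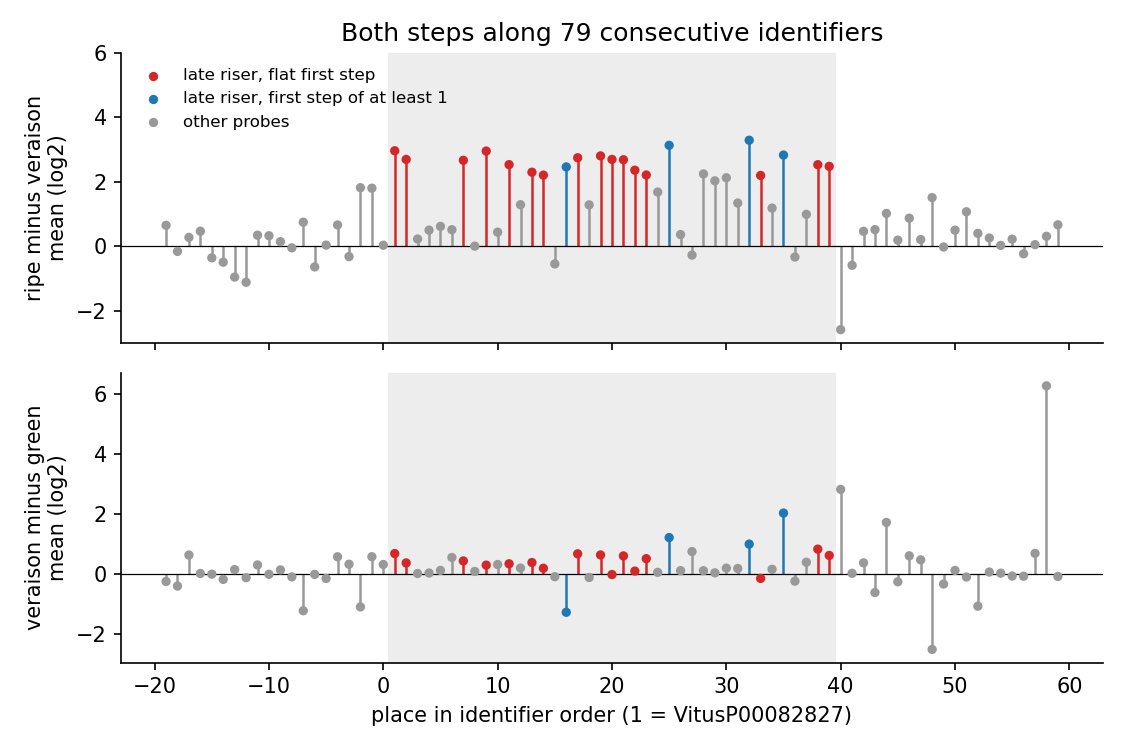
Differences (log2) along 79 probes consecutive in identifier order, with ripe minus veraison mean above and veraison minus green mean below. The grey band is the stretch of 39 probes, red marks its 16 late risers with a flat first step and blue its 4 late risers with a first step of at least 1 in size. In the band, 28 of the 39 probes had a ripe minus veraison difference above 1. The median first step was 0.21 over the 39 and 0.42 over the 16.

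The run of 3 probes was made up of VitusP00265477, VitusP00265508 and VitusP00265518, which stood among the 7 of the 111 with the largest excess of ripe over the highest veraison value. All 3 had a negative first step, of -0.53, -0.97 and -0.998. VitusP00265487, which lies between them and missed the rule with a first step of -1.16, had 7.29, 7.23 and 7.61 in green berries, 6.06, 6.04 and 6.54 at veraison and 9.36 in ripe berries. The other probe between them, VitusP00265495, had 10.12, 9.83 and 10.54 in green berries, 10.87, 9.80 and 10.60 at veraison and 9.46 in ripe berries, and so no late rise. VitusP00265425, 5 places before the run, went the other way in its first step, by 1.22, and stood 3.92 above its veraison mean in ripe berries.

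In some runs, picked after the values were seen, the probes also shared the deviation of a single array. VitusP00292495 and VitusP00292535, given above, span 5 places, and both were low in green extraction 3. VitusP00082563 and VitusP00082586 flank VitusP00082576. VitusP00082563 had 9.30, 9.17 and 8.59 in green berries, 9.58, 10.06 and 9.60 at veraison and 12.72 in ripe berries. VitusP00082576 had 10.54, 10.50 and 9.69 in green berries, 8.87, 8.85 and 8.92 at veraison and 11.90 in ripe berries. Green extraction 3 was the lowest green array in all 3 of these probes. Their ripe minus veraison differences were alike at 2.97, 3.02 and 3.13, while their first steps were 0.73, -1.36 and -0.68. That array was the lowest in 53.2% of the 111, so nothing is read from such sharing. In the run of VitusP00253033 and VitusP00253063 it was the lowest green array only in VitusP00253063.

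The 111 were finally set beside the other probes whose ripe value lay at least 2 above the highest veraison value. There were 264 such probes in all. In 118 the veraison mean was at least 1 above the green mean, in 35 at least 1 below, and the 111 with a flat first step made up 42.0%. By green mean, probes that stepped up began lowest, with a median of 5.77, against 6.68 for the flat and 10.42 for the stepped-down probes. Late risers with a flat first step had the lowest ripe levels, with a median of 9.50, against 11.12 for probes that had already stepped up and 10.97 for those that had stepped down. Their second step was of a like size, with median ripe minus veraison differences of 2.52, 2.70 and 2.60 for the flat, stepped-up and stepped-down probes. Of the 3 probes in the table whose ripe value exceeded the highest veraison value by more than 4, 2 were among the 111. These groups were formed by the values compared, so no test was made between them.

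**Figure D5:**
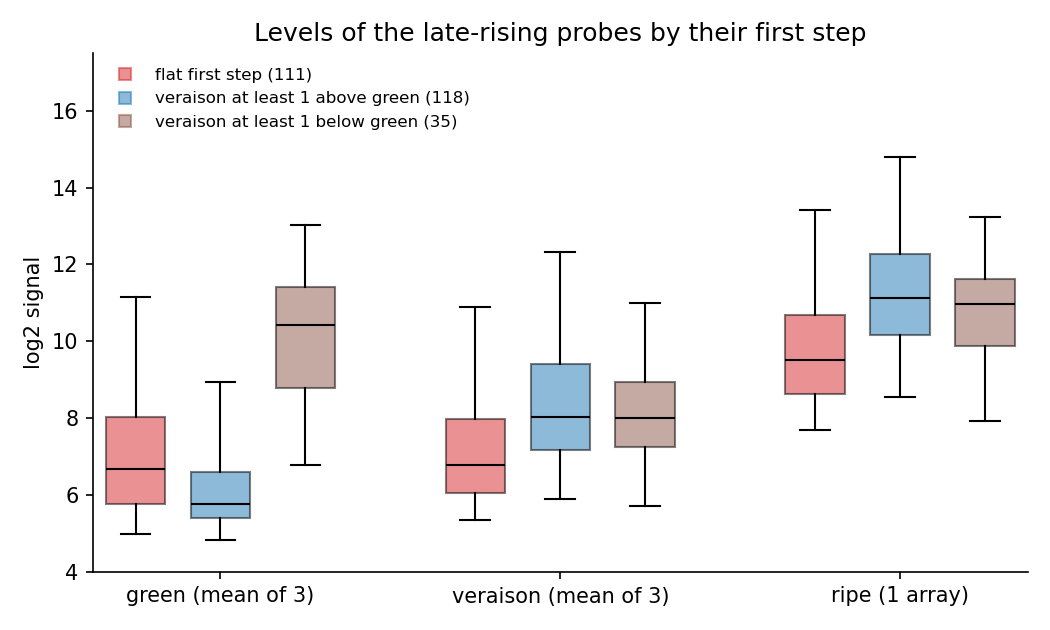
Log2 signal (vertical axis) of the 264 late-rising probes at the 3 stages, split by their first step. Boxes span the quartiles with the median, and whiskers the lowest and highest probe. Probes with a flat first step (red) have a ripe median of 9.50, below the 11.12 of those already up at veraison (blue) and the 10.97 of those down at veraison (brown).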

How the data were processed

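Sauvignon blanc berry RNA was labelled with Cy3 and hybridised to 1-colour NimbleGen arrays, per the labels' protocols. The log2 values were used as deposited by the authors, with RMA named in the submitters' processing notes. RMA version, array build and filters are not given in the sources used here. The log base was taken from the range of the values. Groups came from the sample titles, with 3 green, 3 veraison and 1 ripe array. The rule was applied to the deposited values with Python 3.11.15 and pandas 2.3.3.

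Background shares came from a two-sided limma test (version 3.58.1, R 4.3.3) of stage on all 7 arrays, using lmFit and eBayes. P-values were adjusted by Benjamini-Hochberg over the 28811 probes. The ripe stage has 1 array, so its differences have no replicate check of their own. The number of arrays limits the precision.

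The probes and comparisons were chosen with earlier results of these data known. Named probes were the 12 with the largest excess over veraison, those nearest each limit, the brightest, the dimmest and those with the largest SDs. Other named probes lie in or next to runs of identifiers and were chosen after their values were seen. Lists by gene product were not computed, because no identifier matched a gene.

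The labels state no pairing of arrays by replicate number, and the main fit used none. The alternatives tried were other limits of the rule, an offset of 50 before the log2, a replicate block, a trended and robust variance, fits without the 25% dimmest probes, 75th percentile scaling, quantile normalization, and fits without 1 green or veraison array.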

Additional observations from a re-analysis of the deposited data

How the results depend on the processing

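The rule found 111 probes. It found 305 with a rise limit of 1.5, 7 with a limit of 3 and 61 with a flat limit of 0.5, and from 108 to 166 without 1 of the arrays, the highest number without veraison extraction 2. The stretch of the large run held 13 to 20 late risers with a flat first step under the alternatives of scaling, offset, filter and left-out arrays, which were added for it after the data were seen. With 50 added before the log2, the median ripe minus veraison difference of the 111 was 2.18 against 2.52, and their median green SD 0.125 against 0.203. With arrays of the stage left out, that green SD was 0.122 to 0.207 and the veraison SD 0.113 to 0.230. Probes called for ripe against veraison numbered 7039, and 4412 (without veraison extraction 3) to 12989 (without veraison extraction 2) when 1 array was omitted. With the replicate number as a block 3468 were called, and 109 of the 111 late risers. The deviations of equally numbered green and veraison arrays correlated at -0.21, -0.12 and 0.05 over probes. Deviations from a mean of 3 arrays depend on each other, so these values cannot decide whether equally numbered arrays were processed together. Among 284 recomputed differences of the 29 named late risers, 17, all with the offset of 50, moved by more than the veraison SD. Their sign is fixed by the way they were chosen, and green arrays do not enter the difference. The single ripe array could not be left out, and dim signals limit the smallest values.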

Other observations

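Neighbouring identifiers also went together outside the late risers with a flat first step. Late risers that had stepped down by veraison held a run of 9 probes between VitusP00088791 and VitusP00088922, a stretch of 14 places, out of 35 such probes. Those that had stepped up held a run of 5 between VitusP00268033 and VitusP00268157, a stretch of 12 places, out of 118. Across all probes, which are not independent replicates and share the same arrays, the ripe minus veraison difference of a probe correlated with that of the next identifier at r = 0.136 (28810 pairs), with the identifier 10 places on at 0.030 and with that 200 places on at 0.002. For the veraison minus green difference the 3 correlations were 0.144, 0.004 and 0.001.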
